A study of Mus musculus with 24 samples.

Results

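The genes described are Stub1, which encodes the ubiquitin ligase CHIP, and 7 genes for proteins that work beside CHIP on the chaperone HSP70: Bag1, Bag2, Bag3, Bag4, Bag5, Hspbp1 and St13. They were chosen by name, and every probe that carries one of these names, or an older name tied to the same transcript, was taken from the 24 arrays. They are 8 of the 27670 genes or features on the array and hold 12 of its 41174 probes. Hspbp1 appears under an older clone name, 1500019G21Rik. A gene was represented by its brightest probe, and 11 of the 12 probes passed the filter on dim signal, so that all 8 genes were tested. The exception was the dimmer probe of Bag4, well above background on 3 of 24 arrays.

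The cells were fibroblasts of mouse embryos, connective tissue cells cultured from mid-gestation embryos of CHIP(+/-) C57BL6 parents. Wildtype cells, CHIP(+/+), and CHIP null cells, CHIP(-/-), both grown with β-mercaptoethanol, were held at 37 °C as controls or heated at 43 °C, for 30 or 240 min by the labels. This gave 8 groups of 3 arrays, from what the labels call biological replicates. No source used here says which part of Stub1 was deleted or whether embryos were pooled. Each value is log2 of the sample's signal (Cy5) over that of a common mouse reference RNA (Cy3), so 0 means equal to the reference and the levels of different genes cannot be compared. The heat comparisons are given throughout in the order wildtype 30 min, wildtype 240 min, null 30 min and null 240 min.

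HSP70 binds unfolded proteins in a cycle of ATP binding and hydrolysis, and co-chaperones decide what becomes of the bound client. St13, also called Hip, holds HSP70 in its client-bound state, whereas the BAG proteins and Hspbp1 promote the release of nucleotide and with it of the client. CHIP binds the tail of HSP70 or HSP90 and attaches ubiquitin to the client, which directs it to the proteasome, and BAG3 instead routes clients to autophagy. In fibroblasts, heat shock is known to drive transcription of inducible chaperones and of Bag3 through the heat shock factor HSF1.

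Heat shock factors bind repeats of the letters GAA in alternating orientation, and the 250 bases before the start of each gene were searched for 2 such units in either order, GAANNTTC or TTCNNGAA, both being the same on either strand. Windows were found for 6 of the 8 genes in the RefSeq promoters of build GRCm38.p6. Only that of Stub1 held such a pair, 123 bases before the start. The windows of Stub1 (chr17:25832920-25833169, minus strand) and of Bag3 (chr7:128523333-128523582, plus strand) are shown because one gene is deleted in the null cells and the other is the member best known as a heat shock gene. Each reads 5′ to 3′ towards the gene, and capitals mark the match.
Stub1: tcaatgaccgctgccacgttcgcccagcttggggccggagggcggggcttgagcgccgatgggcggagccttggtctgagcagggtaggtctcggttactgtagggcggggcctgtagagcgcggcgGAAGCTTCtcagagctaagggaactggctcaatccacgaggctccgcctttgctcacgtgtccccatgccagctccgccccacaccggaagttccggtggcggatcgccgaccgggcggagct
Bag3: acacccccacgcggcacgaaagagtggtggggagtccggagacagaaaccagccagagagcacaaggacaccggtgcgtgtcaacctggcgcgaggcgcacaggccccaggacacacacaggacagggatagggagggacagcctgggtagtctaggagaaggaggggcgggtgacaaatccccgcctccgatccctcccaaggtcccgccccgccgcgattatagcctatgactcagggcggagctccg
Over all 32851 RefSeq windows of this length, 12.8% held a pair of units. Bag1, Bag2, Bag5 and Hspbp1 held none in these windows, and Bag4 and St13 were not among those matched. A match is a run of letters and not a binding site.

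Some facts of the whole series bear on these genes. The median Cy5 signal lay 4.89 to 10.5 intensity units above local background depending on the array, so many spots were dim. The number of arrays, 3 a group, limits the precision. Arrays labelled 30 and 240 min were on separate slides, and each of the 24 columns of the authors' value table matched an array with the opposite time label, so a comparison between times cannot be told apart from one between scan sets, and the times named are those on the scanner files. The cultures labelled 30 min differed in sex-linked RNA: Xist, the RNA of the inactive X chromosome, was well above background on 6 of 6 CHIP null arrays and 0 of 6 wildtype arrays, and the Y-linked Ddx3y and Eif2s3y the reverse. On arrays labelled 240 min Xist was above background on all 12 and the Y-linked genes on 0. The wildtype cultures therefore differed in sex-linked RNA between the time labels as well. Of 13 fibroblast markers, 12 were well above background on all 24 arrays. Of 13 macrophage markers, 12 passed the filter in at least 1 group, 3 were above background on all arrays, and Ptprc, the leukocyte surface marker CD45, passed in no group.

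Stub1 was checked first, since its loss defines the CHIP null cells. In wildtype controls its log2 ratio was -0.24, -0.24 and -0.12 on the 3 arrays labelled 30 min and -0.23, -0.18 and -0.24 on those labelled 240 min. In CHIP null controls it was -2.12, -1.94 and -2.04 at 30 min and -2.43, -2.14 and -2.33 at 240 min. All 12 CHIP null arrays, which spanned -2.43 to -1.72, lay below all 12 wildtype arrays, which spanned -0.24 to -0.01. A signal remained: the Stub1 probe was well above background on all 12 CHIP null arrays, with 82.1 to 289 intensity units over local background against 484 to 1793 on the wildtype arrays, and nothing in the files says where the probe lies relative to the deletion.

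The CHIP null controls were lower in Stub1 on the log2 scale, the difference being -1.83 ± 0.07 (SE, 3 arrays a group; limma, adjusted p = 1.1e-17) at 30 min, a 3.56-fold difference. At 240 min the difference was -2.08 ± 0.07 (limma, adjusted p = 6.7e-18), or 4.23-fold. In heated cells the differences were -1.74 ± 0.07 and -2.02 ± 0.07, 3.35- and 4.06-fold (limma, adjusted p = 3.6e-17 and 7.1e-18). These folds are of background-corrected ratios with an added offset, which draws dim signals towards the reference. Of all genes tested, 3.86% were called in all 4 genotype comparisons.

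The other 7 genes differed little between genotypes, as the plot of all array values shows. In controls at 30 min, 1 of the 7 was called, Bag4, which was higher, where 34% of all 13488 genes were called (14.7% higher, 19.4% lower) and 44.6% did not overlap between groups. In controls at 240 min limma called 0 of the 7, against 13.1% of all genes (4.8% higher, 8.26% lower; 31.6% not overlapping), and Bag3 was the 1 of the 7 whose groups did not overlap. In heated cells at 30 min, 2 of the 7 were called, Bag3 and St13, both lower, against 27.5% of all genes (14.2% higher, 13.3% lower; 38.8% not overlapping). In heated cells at 240 min, 1 of the 7 was called, Bag3, now higher, against 13% of all genes (4.66% higher, 8.3% lower; 27.4% not overlapping). The differences of these 7 genes lay between -0.19 and 0.25, those of Stub1 between -2.08 and -1.74.

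**Figure D1:**
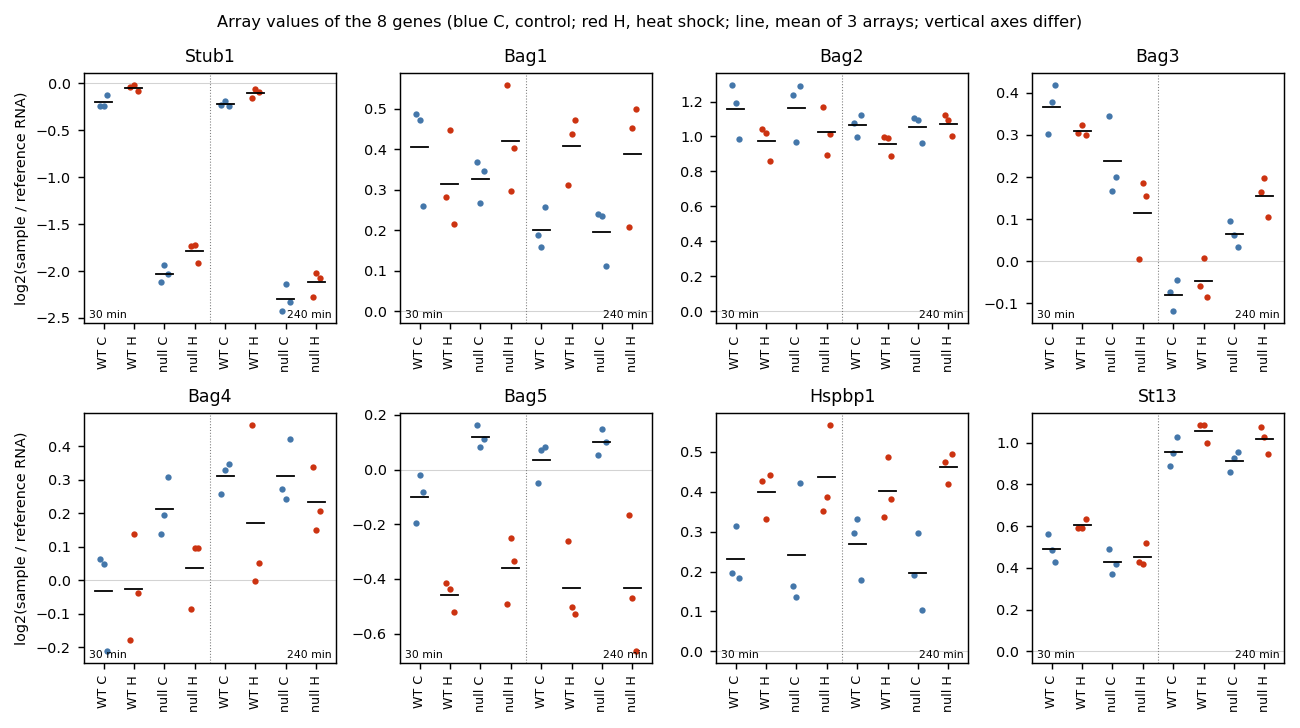
Log2 ratio of sample to reference RNA (vertical axis) of each of the 8 genes on every array, by group (horizontal axis: WT wildtype, null CHIP null, C control, H heat shock; left of the dotted line 30 min, right 240 min). Points are arrays and lines are means of 3. Stub1 separates by genotype (-0.24 to -0.01 against -2.43 to -1.72). Bag5 separates by heat shock within each genotype and time. Over all arrays its controls (-0.19 to 0.16) and heated arrays (-0.66 to -0.16) overlap.

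Bag5, a BAG protein built from several BAG domains that promotes nucleotide release from HSP70, was called lower after heat in all 4 comparisons. In wildtype cells labelled 30 min its log2 ratio was -0.19, -0.02 and -0.08 in controls and -0.41, -0.44 and -0.52 after heat. In the wildtype labelled 240 min it was -0.05, 0.07 and 0.08 in controls and -0.26, -0.50 and -0.53 after heat. All heated arrays lay below all controls in both sets.

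In the CHIP null labelled 30 min, Bag5 was at 0.16, 0.08 and 0.11 in controls and -0.49, -0.25 and -0.34 after heat. In the CHIP null labelled 240 min it was at 0.05, 0.15 and 0.10 in controls and -0.16, -0.47 and -0.66 after heat. Here too no heated array reached a control array, and the spread among the heated arrays was widest in this last group (SD 0.25).

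Bag5 fell by 0.36 ± 0.09 in wildtype cells at 30 min (log2 scale, SE; limma, adjusted p = 0.0072) and by 0.47 ± 0.09 at 240 min (limma, adjusted p = 0.00031), 1.28- and 1.38-fold. Null cells showed falls of 1.39- and 1.45-fold, by 0.48 ± 0.09 (limma, adjusted p = 0.0002) and by 0.53 ± 0.09 (limma, adjusted p = 5.7e-05). Bag5 was the only one of the 8 genes called in all 4 heat comparisons, and 514 of 13488 genes (3.81%) were called lower in all 4. The 4 heated groups were the 4 lowest of the 8 groups in mean. Neighbours among the 4 heated groups did not differ beyond their spread, and the gap of 0.26 between the highest heated group, CHIP null at 30 min, and the lowest control group, wildtype at 30 min, exceeded the larger SD of the pair, 0.12.

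Heated arrays and their controls shared only 1 slide in each comparison. Within that slide Bag5 differed by -0.37, -0.30, -0.61 and -0.53, with a lone array on one side each time. With slide as a block both wildtype differences were not called (limma, adjusted p = 0.079 and 0.14) and both differences of the null cells were (adjusted p = 0.0011 and 0.0030). This block called 3.35%, 4.57%, 20% and 20.4% of all genes. Cell type markers moved with heat as well. Of 12 macrophage markers 0, 5, 6 and 10 were higher and 8, 0, 1 and 0 lower, with Bag5 lower each time. Of 13 fibroblast markers 0, 2, 6 and 3 were higher and 1, 2, 1 and 2 lower. Of 6 neural and glial markers 1, 2, 4 and 3 were higher, and of 6 epithelial markers 0, 0, 2 and 3, with 0 lower. Of 5 muscle markers 0, 0, 3 and 1 were higher and 0, 0, 1 and 0 lower. Of 2 endothelial markers 1, 1, 2 and 1 were higher and 0 lower. Their part in the result was not tested. Normalization by the array median in place of loess gave larger differences for Bag5, -0.56, -0.61, -0.99 and -0.93, with the median of all genes at -0.09, -0.03, -0.18 and -0.18.

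**Figure D2:**
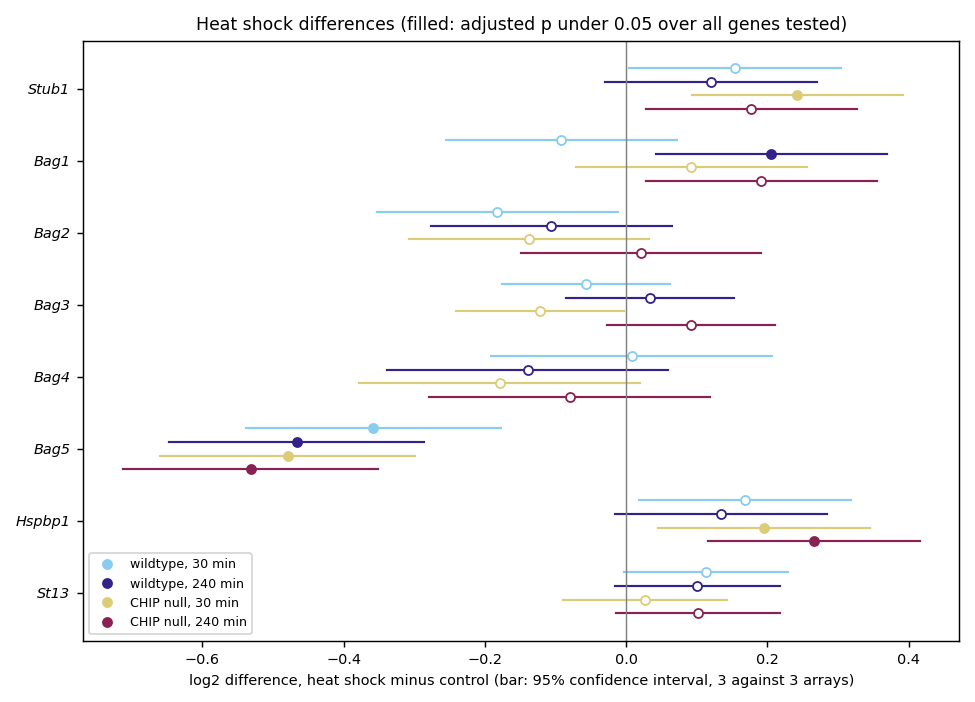
Log2 difference between heat shock and control (horizontal axis) for the 8 genes in wildtype and CHIP null cells at 30 and 240 min. Points are fitted differences and bars 95% confidence intervals over 3 against 3 arrays, filled where adjusted p was under 0.05; Bag5 lies at -0.36 to -0.53 in all 4 comparisons and no interval of Bag3 reaches above 0.21.

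Bag3, the stress-inducible member that couples HSP70 clients to autophagy, was not called higher or lower by heat in any of the 4 comparisons. In wildtype cells its log2 ratio was 0.30, 0.38 and 0.42 in controls and 0.30, 0.32 and 0.30 in heated cells at 30 min. At 240 min the wildtype values were -0.07, -0.12 and -0.05 in controls and -0.06, 0.01 and -0.09 after heat. Controls and heated arrays overlapped in both sets.

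Null cells had Bag3 at 0.35, 0.17 and 0.20 in controls and 0.01, 0.19 and 0.16 after heat at 30 min. At 240 min it was at 0.09, 0.06 and 0.03 in controls and 0.16, 0.20 and 0.10 after heat, where the groups did not overlap by a narrow margin. The wildtype heat differences were -0.06 (95% interval -0.18 to 0.06) and 0.03 (-0.09 to 0.15). Those of the null cells were -0.12 (-0.24 to -0.0032; limma, adjusted p = 0.10) and 0.09 (-0.03 to 0.21). The upper bound of 0.21 was the highest of the 4. The dimmer Bag3 probe gave -0.04, 0.13, 0.01 and 0.08, and was not called in any comparison.

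The brighter Bag3 probe was called between genotypes in heated cells, and also between the time labels, as given further below. Heated CHIP null arrays lay below all heated wildtype arrays at 30 min and above all of them at 240 min. The differences were -0.19 ± 0.06 (SE; limma, adjusted p = 0.012) and 0.20 ± 0.06 (adjusted p = 0.019). In controls they were -0.13 and 0.14 and were not called. The dimmer probe, at 11.6 to 44.3 intensity units over background against 152 to 957 for the brighter, gave 0.03 and 0.04 in heated cells and was not called. The genotype difference itself differed between the times, by 0.27 in controls and 0.40 in heated cells, the only member called in either test, with 18.1% and 17.7% of all genes called (limma, adjusted p = 0.019 and 0.00085; a test added after the values were seen). The call at 30 min was lost without heated null replicate 1 (-0.14; limma, adjusted p = 0.099), and the call at 240 min without heated wildtype replicate 1 or 3 or heated null replicate 2, the values without 1 array running from 0.18 to 0.23. With the mean of the 2 probes the differences were -0.08 and 0.12, with array medians in place of loess -0.32 and 0.06, and with slide as a block -0.06 and 0.24, none of them called.

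Beside these differences stand others between the cultures labelled 30 min, namely the sex-linked RNA above and the macrophage markers. The mean log2 ratio of the 12 macrophage markers ran from -0.54 to -0.50 over the wildtype controls and from -1.39 to -1.27 over the CHIP null controls, and from -1.11 to -0.99 and -1.30 to -1.22 over the heated cells. All 12 were lower in null than in wildtype controls, and 3 of 12 in heated cells. At 240 min the means ran from -1.55 to -1.48 and -1.94 to -1.85 over wildtype and null controls and from -1.37 to -1.30 and -1.69 to -1.58 over heated cells, with 6 and 4 of 12 lower in null cells. Other marker lists differed as well: of 13 fibroblast markers 7, 6, 9 and 6 were higher and 1, 2, 1 and 2 lower in null cells (controls 30 and 240 min, heated 30 and 240 min; medians 0.41, 0.09, 0.49 and 0.25), and of 6 neural and glial markers 0, 2, 0 and 2 were higher and 5, 4, 1 and 4 lower. Of 6 epithelial markers 1, 4, 1 and 2 were lower, of 5 muscle markers 1, 3, 1 and 2, and of 2 endothelial markers 1 in each. Their part in the Bag3, Bag4 and St13 differences was not tested. In a culture measured in bulk, fewer cells of a type and less RNA per cell cannot be told apart.

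**Figure D3:**
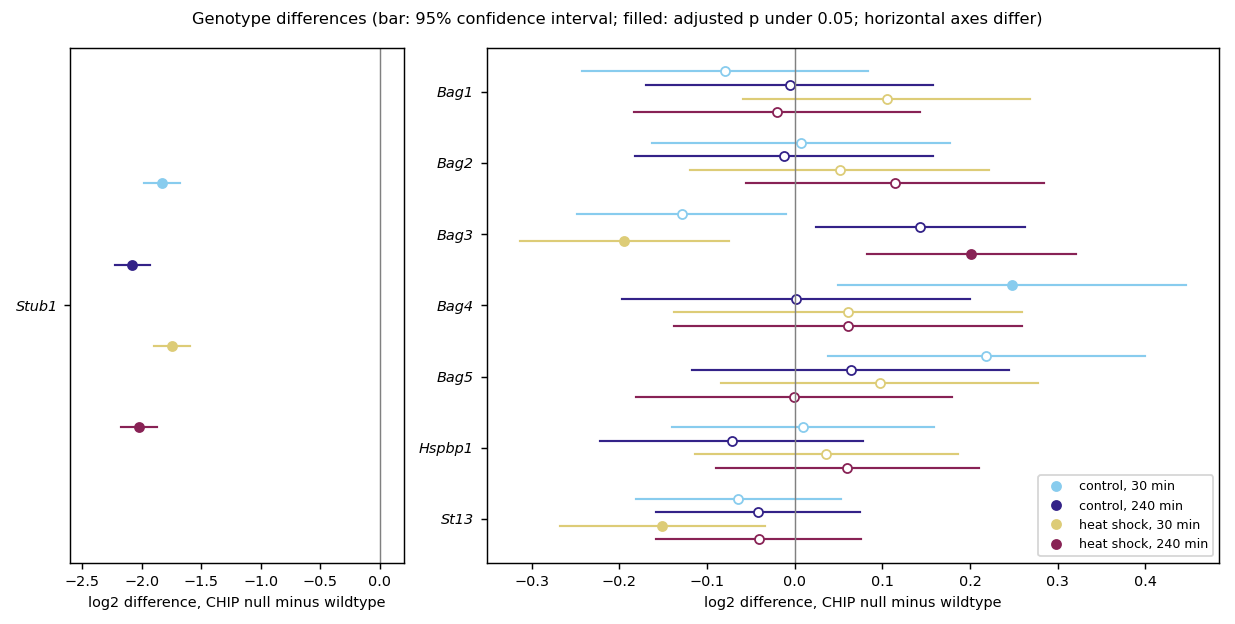
Log2 difference between CHIP null and wildtype (horizontal axis; left panel Stub1, right panel the other 7 genes, on different scales) in controls and heated cells at 30 and 240 min. Points are fitted differences and bars 95% confidence intervals over 3 against 3 arrays, filled where adjusted p was under 0.05; Stub1 lies at -1.74 to -2.08 and the other genes within 0.25 of 0, with Bag3 on opposite sides at the 2 times.

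Hspbp1, a nucleotide exchange factor of another fold than the BAG proteins that is also known to restrain CHIP, had higher means after heat in all 4 comparisons. Wildtype cells had it at 0.20, 0.32 and 0.18 in controls and 0.43, 0.33 and 0.44 after heat at 30 min. At 240 min they had it at 0.30, 0.33 and 0.18 in controls and 0.34, 0.49 and 0.38 after heat. These groups did not overlap, and the differences of 0.17 ± 0.07 and 0.13 ± 0.07 were not called (limma, adjusted p = 0.12 and 0.16).

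Among null cells, Hspbp1 was at 0.16, 0.14 and 0.42 in controls and 0.35, 0.39 and 0.57 after heat at 30 min, where 1 control lay among the heated arrays. At 240 min it was at 0.19, 0.30 and 0.10 in controls and 0.47, 0.42 and 0.49 after heat, with no overlap. Hspbp1 rose by 0.19 ± 0.07 at 30 min (limma, adjusted p = 0.039) and by 0.27 ± 0.07 at 240 min (adjusted p = 0.0061). The probe was dim, 39.2 to 85.7 intensity units over background, and a smaller offset gave 0.37 and 0.38. With array medians in place of loess the 2 rises became -0.05 and -0.01, where all genes had medians of -0.18 and -0.18, so the direction of Hspbp1 changed with the normalization. With slide as a block they were 0.11 (limma, adjusted p = 0.47) and 0.36 (adjusted p = 0.016). Without null control replicate 1 or 2 or heated null replicate 3 the call at 30 min was lost, and the values without 1 array ran from 0.13 to 0.29.

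Counted over the 8 genes, 0 were called higher and 1 lower after heat in wildtype cells at 30 min, where 6.77% and 7.79% of all genes were (14.6% in all), and 31.7% of all genes did not overlap between groups. At 240 min 1 was higher and 1 lower in wildtype cells, against 18.8% and 12.7% of all genes (31.5% in all, 51.7% not overlapping). Null cells had 2 higher and 1 lower at 30 min, against 22.6% and 12.6% (35.2% in all, 44.6% not overlapping). At 240 min they had 1 higher and 1 lower, against 24.5% and 14.5% (39% in all, 46% not overlapping). The median difference of the 8 genes was -0.02, 0.07, -0.05 and 0.10, with medians of 0.01, 0.06, 0.03 and 0.07 over all genes. The balance of higher and lower calls moved with the normalization: 46.5%, 59.6%, 64.2% and 62.7% of all calls were higher with loess, 4.2%, 4.32%, 0.799% and 0.405% with array medians, and 39.3%, 44%, 46% and 41.7% with the scanner software's ratio. Genotype calls were 43.1%, 36.8%, 51.8% and 36% higher (controls 30 and 240 min, heated 30 and 240 min) with loess and 66.9%, 38.2%, 29% and 8.11% with array medians. Bag2, Bag3, Bag4 and St13 were called in none of the 4, as were 39.4% of all genes.

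Stub1 itself had a higher mean after heat in all 4 comparisons and was called in 1. The heated wildtype arrays were at -0.04, -0.01 and -0.08 at 30 min and at -0.15, -0.06 and -0.09 at 240 min, above all their controls, but the differences of 0.15 ± 0.07 and 0.12 ± 0.07 were not called (limma, adjusted p = 0.16 and 0.21). The signal that remained in null cells was at -1.73, -1.72 and -1.92 after heat at 30 min and at -2.27, -2.02 and -2.07 at 240 min. Over local background, this signal was 82.1 to 107 intensity units after heat at 30 min and 120 to 143 in the controls. The added offset draws dim signals towards the reference. As a log2 ratio the signal rose by 0.24 ± 0.07 at 30 min (limma, adjusted p = 0.011), with no overlap. The 0.18 ± 0.07 at 240 min was not called (limma, adjusted p = 0.055). With array medians in place of loess the value at 30 min was -0.16, near the median of all genes there, and with slide as a block it was 0.30 (limma, adjusted p = 0.045). Without null control replicate 1 or heated null replicate 2 the call was lost, and the values without 1 array ran from 0.20 to 0.31.

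Bag1, which carries a ubiquitin-like domain and can bring HSP70 to the proteasome, was called once. At 240 min in wildtype cells it was at 0.19, 0.16 and 0.26 in controls and 0.31, 0.44 and 0.47 after heat, a rise of 0.21 ± 0.08 (limma, adjusted p = 0.049) with no overlap. The null controls at 240 min were at 0.24, 0.24 and 0.11 and the heated arrays at 0.21, 0.45 and 0.50, a difference of 0.19 ± 0.08 that was not called (adjusted p = 0.057).

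At 30 min Bag1 overlapped between controls and heated cells in both genotypes. The wildtype controls were at 0.49, 0.47 and 0.26 and the heated arrays at 0.28, 0.45 and 0.21. The CHIP null controls were at 0.37, 0.27 and 0.35 and the heated arrays at 0.56, 0.30 and 0.40. The call at 240 min was the weakest of the heat calls: it was lost in 14 of the 24 fits that each left out 1 array, also for arrays of groups outside the comparison, with values between 0.17 and 0.25. With array medians in place of loess it was 0.10 and with slide as a block 0.11, neither called.

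Bag2, known as an inhibitor of the ubiquitin ligase activity of CHIP, lay above the reference on all 24 arrays, between 0.86 and 1.30. Wildtype cells had 1.30, 1.19 and 0.98 in controls and 1.05, 1.02 and 0.86 after heat at 30 min, and 1.08, 0.996 and 1.12 and then 0.9999, 0.99 and 0.89 at 240 min. Null cells had 1.23, 0.97 and 1.29 and then 1.17, 0.89 and 1.01 at 30 min, and 1.10, 1.09 and 0.96 and then 1.12, 1.09 and 1.005 at 240 min. No heat or genotype difference of Bag2 was called, and none of its 7 neighbouring pairs of groups in the order of means differed by more than the larger SD of the pair. Its heat differences lay between -0.18 and 0.02, with 95% intervals from -0.35 to 0.19.

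St13 was called by heat in no comparison by its brightest probe. At 30 min it was at 0.56, 0.49 and 0.43 in wildtype controls and 0.59, 0.59 and 0.63 after heat. Null cells had 0.49, 0.37 and 0.42 in controls and 0.43, 0.42 and 0.52 after heat. All 3 heated null arrays lay below all heated wildtype arrays, a difference of -0.15 ± 0.06 (SE; limma, adjusted p = 0.048). Both other probes gave 0.00 and -0.01 there, and the call was lost in 14 of the 24 fits that left out 1 array, with values from -0.18 to -0.13. With slide as a block it was -0.23 and not called (limma, adjusted p = 0.17).

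On arrays labelled 240 min all values of the brightest St13 probe lay above all those labelled 30 min. The wildtype was at 0.89, 0.95 and 1.02 in controls and 1.09, 1.08 and 0.999 after heat. The null was at 0.86, 0.93 and 0.95 in controls and 1.07, 1.03 and 0.94 after heat. Its heat differences were 0.11, 0.10, 0.03 and 0.10. With array medians in place of loess the third of these was -0.42 and was called (limma, adjusted p = 0.014). A dimmer probe of St13 was called higher after heat in wildtype cells at 240 min, by 0.24 ± 0.08 (limma over probes, adjusted p = 0.016), while the third probe gave -0.05 there.

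**Figure D4:**
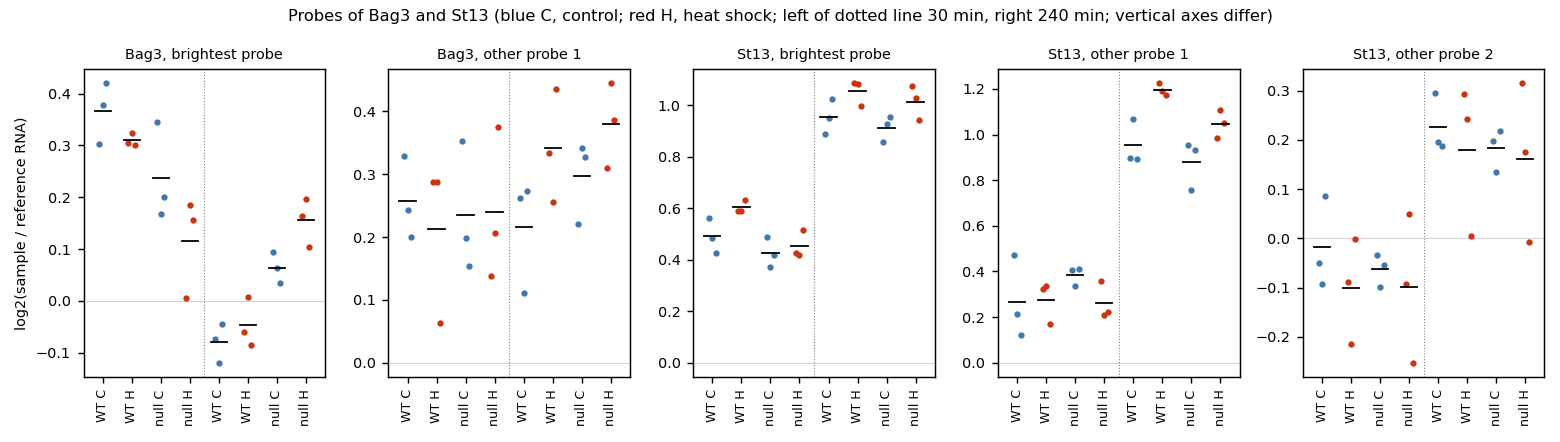
Log2 ratio of sample to reference RNA (vertical axis) for the 2 probes of Bag3 and the 3 of St13 on every array, by group (horizontal axis, as in the plot of all array values). Points are arrays and lines means of 3. All 3 probes of St13 have higher group means at 240 min, though single arrays of the third probe overlap between times. The 2 probes of Bag3 differ in how they order the groups.

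Bag4, also called silencer of death domains for its known binding to tumour necrosis factor receptors, was the dimmest of the 8, at 2.97 to 53.3 intensity units over background. Its brighter probe was well above background on 2, 1, 3 and 1 of 3 arrays in wildtype controls, heated wildtype, null controls and heated null cells at 30 min, and on all 12 arrays at 240 min. At 30 min it was at 0.06, 0.05 and -0.21 in wildtype controls and 0.14, 0.20 and 0.31 in CHIP null controls. The CHIP null arrays were all higher, by 0.25 ± 0.10 (limma, adjusted p = 0.048). This call was lost in 14 of the 24 fits that left out 1 array, with values from 0.16 to 0.30, and a smaller offset gave 0.57 without a call (adjusted p = 0.055), as did slide as a block with 0.34 (adjusted p = 0.090). Bag5 was also above the wildtype on all null control arrays at 30 min, by 0.22 ± 0.09, but was not called (limma, adjusted p = 0.056).

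After heat at 30 min, Bag4 was at -0.18, 0.14 and -0.04 in the wildtype and at -0.09, 0.10 and 0.10 in the CHIP null. At 240 min it was at 0.26, 0.33 and 0.35 in wildtype controls and 0.46, 0.00 and 0.05 after heat, and at 0.27, 0.24 and 0.42 and then 0.34, 0.15 and 0.21 in the CHIP null. No heat difference of Bag4 was called, and its intervals were among the widest, from -0.38 to 0.21 over the 4 comparisons. The heated wildtype at 240 min spread most, with an SD of 0.26.

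Whether CHIP changes the response of these genes to heat is asked by the interaction, the heat difference in the CHIP null minus that in the wildtype. By limma, 0 of the 8 genes were called at 30 or 240 min, and 0 had an unadjusted p under 0.05 at either time. Over all genes 0.445% and 0% were called, and 1573 and 471 genes had an unadjusted p under 0.05. For Bag5 the interaction was -0.12 (95% interval -0.38 to 0.13) at 30 min and -0.07 (-0.32 to 0.19) at 240 min. For Bag3 it was -0.07 (-0.23 to 0.10) and 0.06 (-0.11 to 0.23), and for Hspbp1 0.03 (-0.19 to 0.24) and 0.13 (-0.08 to 0.34). The intervals leave room for differences about as large as the heat differences of Hspbp1. For Bag5 at 30 min the bound of -0.38 is about the size of its heat difference in wildtype cells, -0.36. The intervals therefore do not show equal responses.

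Between the time labels, which are also scan sets, 4 of the 8 genes were called in wildtype controls and 3 in CHIP null controls. Of all genes, 63.6% (27.9% higher, 35.6% lower) and 48.7% (19% higher, 29.6% lower) were called there. The cultures differed as well. In wildtype controls Xist was well above background on 0 of 3 arrays at 30 min and 3 of 3 at 240 min, the Y-linked genes the reverse. Mean macrophage markers ran from -0.54 to -0.50 and then -1.55 to -1.48 in wildtype controls. In null controls they ran from -1.39 to -1.27 and then -1.94 to -1.85. Their part in the time differences was not tested. St13 was higher at 240 min by 0.46 ± 0.06 in wildtype cells (limma, adjusted p = 6.9e-08) and by 0.49 ± 0.06 in null cells (limma, adjusted p = 1.3e-07). Its other probes gave 0.24 and 0.68 for wildtype controls, 0.25 and 0.49 for null controls, all called. Bag3 fell by 0.45 ± 0.06 and 0.17 ± 0.06 (limma, adjusted p = 1.9e-07 and 0.015), while its dimmer probe gave -0.04 and 0.06, not called. In wildtype controls Bag1 fell by 0.20 and Bag4 rose by 0.34, and in null controls the remaining Stub1 signal fell by 0.27 (limma, adjusted p = 0.027, 0.003 and 0.0037). The Bag1 call was lost without wildtype control replicate 1 or 2 of either time (-0.28 to -0.16 without 1 array), and the Bag3 call in null controls without replicate 1 at 30 min or 3 at 240 min (-0.21 to -0.12). With array medians in place of loess these became 0.018 for Bag1 and 0.020 for Bag3.

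As a description without a test, over the 24 arrays Bag5 and Hspbp1 had a Pearson r of -0.68, the lowest of the 28 pairs, and Bag4 and St13 one of 0.53, the highest. The points share 8 groups, 6 slides and 1 reference RNA. The genes closest to Bag5 over the same arrays were Fam91a1 and Frs2 (r = 0.96 and 0.95), those closest to St13 were Plat and Wdr61 (0.97 and 0.97), and those closest to Bag3 were Nr2f6, Sidt2, Chpf2, Kif1a and Srxn1 (0.94 to 0.90). For Stub1 they were Bex2, Zfp945, 1700007K13Rik, Tmem254a and Tspan13 (0.99 to 0.96). The likeness of Hspbp1 to its nearest genes, Pfn1 and Mad2l2, was lower (0.77 and 0.76), and that of Bag2 to Klhl26 and Eif5a2 lower still (0.68 and 0.67). Those nearest to Bag4 were LOC622592 and Tmtc3 (0.86 and 0.85), and Tmem160 was nearest to Bag1 (0.81).

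Of 12 genes of the HSP70 and HSP110 families, including members of organelles such as mitochondria, 10 were tested. After heat 0, 1, 1 and 1 were called higher and 3, 2, 5 and 2 lower. With array medians in place of loess 0, 1, 0 and 1 were higher and 0, 1, 6 and 3 lower. The gene called higher at 240 min was Hspa1a, the inducible HSP70, from -0.89, -0.93 and -0.85 in wildtype controls to 4.04, 1.39 and 1.72 after heat. Its rise was 3.27 ± 0.38 in wildtype and 2.24 ± 0.42 in null cells (limma, adjusted p = 8.6e-07 and 0.00027), the latter over 2 heated arrays because 1 spot was marked as an outlier. The 3 other probes of Hspa1a gave 1.43 to 3.08 in wildtype and 1.66 to 2.97 in null cells. Bag5 fell and Bag3 was not called in these same comparisons. Hsph1, an HSP110 that also acts as a nucleotide exchange factor, fell at 30 min by 0.27 in wildtype and 0.47 in null cells (limma, adjusted p = 0.012 and 3.8e-05), and its differences at 240 min were 0.03 and -0.05, not called. Hspa9, the HSP70 of mitochondria, fell in all 4, by 0.30, 0.35, 0.39 and 0.36. Its other probe gave -0.09, -0.20, -0.20 and -0.10.

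Of 21 J-domain proteins, which deliver clients to HSP70, 20 were tested, and 2, 1, 2 and 1 were called higher and 4, 6, 6 and 7 lower after heat. Dnajb1, a J-domain protein of the cytosol, fell in all 4, by 0.38, 0.20, 0.29 and 0.19, while its other probe gave -0.21, 0.01, 0.02 and 0.18. Of 20 genes of HSP90 and its co-chaperones, all tested, 0, 4, 2 and 3 were higher and 2, 1, 3 and 3 lower. Hsp90aa1, the inducible HSP90, fell by 0.36 and 0.48 at 30 min in wildtype and null cells, and its differences at 240 min were 0.08 and 0.04. Sgta, a co-chaperone with the same kind of TPR domain as CHIP and St13, rose by 0.31 ± 0.07 in null cells at 240 min (limma, adjusted p = 0.00087), a value of -0.02 with array medians in place of loess. The medians of the J-domain list were -0.09, -0.10, -0.06 and -0.12 and those of the HSP90 list 0.01, 0.09, 0.01 and 0.04, beside 0.01, 0.06, 0.03 and 0.07 over all genes. Of 4 genes, heat shock factors and the factor-binding Hsbp1, 2 were tested. By heat limma called 0 of them, or 2 lower in null cells at 30 min with array medians. With array medians 0 of the J-domain and 0 of the HSP90 genes were higher after heat in any comparison, 2, 3, 14 and 17 J-domain genes were lower, and 0, 1, 10 and 6 HSP90 genes were lower.

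Of 23 genes listed as ubiquitin partners of CHIP, most for ubiquitin and its enzymes and others such as proteasome subunits, 22 were tested. After heat 3, 3, 5 and 3 were higher and 1, 2, 2 and 4 lower. With array medians 0 were higher and 1, 3, 11 and 7 lower. Ube2d2a, an enzyme that hands ubiquitin to CHIP, fell in all 4 comparisons, by 0.21, 0.18, 0.17 and 0.17, while its 2 other probes ranged from -0.33 to 0.05, -0.17 to 0.15, -0.31 to 0.04 and -0.20 to 0.10. Ube2n, which builds ubiquitin chains with CHIP, rose at 240 min by 0.29 ± 0.09 in wildtype and 0.33 ± 0.09 in null cells (limma, adjusted p = 0.012 and 0.0042), where its other probe gave 0.13 and 0.16. Of 20 reported CHIP substrates, 15 were tested, and 0, 2, 2 and 3 were higher and 0, 6, 5 and 7 lower after heat, or 0 higher and 0, 6, 13 and 9 lower with array medians. Nr3c1, the glucocorticoid receptor, fell at 240 min by 0.60 ± 0.08 in wildtype and 0.66 ± 0.08 in null cells (limma, adjusted p = 6.1e-06 and 1.4e-06), though its 2 other probes gave only -0.15 to -0.01 and -0.28 to -0.11.

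Of 20 genes that act with BAG3 in selective autophagy, all tested, 1, 6, 5 and 3 were higher after heat and 3 lower in each of the 4 comparisons, or 0, 1, 0 and 0 higher and 1, 0, 11 and 5 lower with array medians. Cryab, a small heat shock protein and binding partner of BAG3, rose in all 4, by 0.26, 0.29, 0.36 and 0.20, while its other probe gave -0.02, 0.31, 0.09 and 0.06, and array medians turned it to -0.03 and -0.11 in null cells. Hspb1, another small heat shock protein, rose by 0.31 ± 0.08 in wildtype cells at 240 min and by 0.29 ± 0.08 in null cells at 30 min (limma, adjusted p = 0.0034 and 0.0047), while 0.09 in wildtype cells at 30 min and 0.16 in null cells at 240 min were not called. With array medians the null values were -0.09 and -0.06. Ulk1, a kinase that starts autophagy, fell in all 4, by 0.30, 0.29, 0.24 and 0.17, while its other probe gave -0.16, -0.15, -0.01 and 0.02. Between genotypes this list differed at 30 min, with 0 higher and 12 lower of 20 in null controls (19.4% of all genes called lower) and 0 higher and 11 lower in heated cells (13.3% of all genes called lower), or 5 and 8 lower with array medians. At 240 min it had 3 higher and 1 lower in controls and 3 higher and 2 lower in heated cells. Bag3 was lower at 30 min and higher at 240 min in the same heated CHIP null cells, and the sex-linked and macrophage RNA that differed at 30 min stand beside this list too. Their part was not tested.

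**Figure D5:**
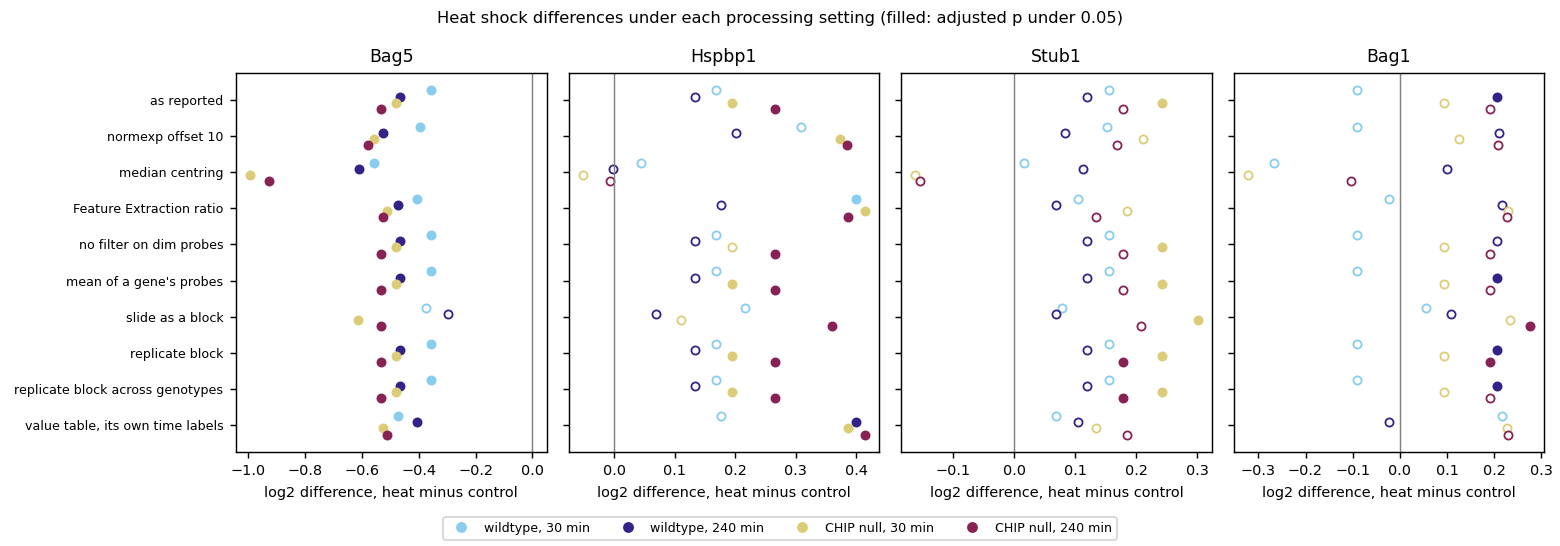
Log2 difference between heat shock and control (horizontal axis) for Bag5, Hspbp1, Stub1 and Bag1 under each way of processing the arrays (vertical axis). Points are the 4 comparisons, filled where adjusted p was under 0.05; Bag5 stays below 0 throughout, while with median centring Hspbp1 lies between -0.05 and 0.04 and Stub1 in null cells at -0.16 and -0.15.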

How the data were processed

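RNA of 24 cultures was measured on Agilent two-colour arrays, with the sample in Cy5, a common reference in Cy3 and no swapped dyes. Per the file headers, Agilent Feature Extraction 9.1.3.1 quantified the spots, and the deposited spot and local background intensity values are linear and not corrected. The deposited log10 ratio of the scanner software was background-subtracted and dye-normalized, per the file headers, and served as an alternative. The authors' value table, on a log2-like scale without stated centring or direction, proved to be that ratio on another base, with the control mean subtracted from heated columns, each of the 24 columns carrying the opposite time label (lowest correlation 0.998, against a highest of 0.900 with the same label). It was an alternative as well. Its column medians lay between -0.05 and 0.02. Other deposited columns are flags, scored per the file headers.

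Background was corrected by normexp at an offset of 50 and log2(Cy5/Cy3) normalized by loess within each array. Control spots were left out, as were 333 outlier spots among the other 43379. Current names came from the accession (22951 probes), the symbol (6659) or a synonym (3109). The other 8455 probes kept their file names. A gene was tested where its brightest probe was well above background on all 3 arrays of at least 1 group, 13488 in all. limma 3.58.1 (R 4.3.3) fitted a mean for each of 8 groups to all arrays, with 16 residual and 11.7 prior degrees of freedom, and adjusted p-values by Benjamini-Hochberg over all genes tested per comparison, called at 0.05. The fit was tested on simulated data.

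The genes, the lists of related genes and markers, and the tests were chosen with earlier results of these data known. The genes named were the 8 described, those most like each (5 for Stub1 and Bag3, 2 for the others), and, from each list, those with the largest called rise and fall per heat comparison or called in all 4 in one direction. Only some of the list genes that this rule gives are printed, chosen after their values were seen. Alternatives were an offset of 10, median centring in place of loess, the deposited ratio, no filter, the mean of a gene's probes, slide or replicate number as a block, the value table, and leaving out each array.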

Additional observations from a re-analysis of the deposited data

Results flagged for a closer look

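The genotype difference of Bag3 differed between the time labels, by a test of that difference added after the values were seen. In controls it was 0.27 higher at 240 than at 30 min on the log2 scale (limma, adjusted p = 0.019), where 18.1% of all genes were called. In heated cells it was 0.40 higher (limma, adjusted p = 0.00085), with 17.7% of all genes called and all 3 CHIP null arrays below the wildtype at 30 min and above it at 240 min. The dimmer Bag3 probe gave 0.10 and 0.01 and was not called. The time labels were also separate scan sets, and the cultures labelled 30 min differed in sex-linked and macrophage RNA between genotypes, whose part was not tested.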

How the results depend on the processing

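A reversal is a change of sign in a value that was called in the report, under the alternative, or in both. The difference of Stub1 between genotypes kept its direction and its call under every alternative and every fit without 1 array, with values without 1 array of -1.88 to -1.79 and -2.16 to -2.01 in controls (30 and 240 min) and -1.78 to -1.68 and -2.07 to -1.95 in heated cells. The fall of Bag5 with heat kept its direction under every alternative, and its call in all but the slide block in the wildtype. Over all genes, slide as a block called 452, 616, 2694 and 2747 by heat (wildtype 30 and 240 min, null 30 and 240 min) in place of 1964, 4245, 4753 and 5263, and 1639, 467, 1719 and 369 by genotype (controls 30 and 240 min, heated 30 and 240 min) in place of 4592, 1762, 3706 and 1749. Median centring called 619 and 1851 by heat in the wildtype and 2866, 833 and 1539 in the first 3 genotype comparisons. The scanner software's ratio called 2650 and 2830 by heat at 240 min and 3050 between times in null controls in place of 6563. The value table called 2714 by heat in the wildtype at 240 min and 2808 in the null at 30 min. It called 1166, 4743, 1161 and 5291 by genotype and 2996 between times in null controls. Its time labels are the opposite ones, so its counts at either label come from arrays of the other. By genotype the scanner software's ratio called 4768, 1182, 5304 and 1182. Interactions at 30 min, 60 in the report, were 39 with an offset of 10, 5 with median centring, 10 with the slide block, 102 with the replicate block and 0 in the value table. At 240 min they were 1 with the slide block and 59 in the value table, in place of 0. By those opposite labels, the 59 stand beside 67 at 30 min with the scanner software's ratio. Among the 8 genes the numbers called moved as well, given with the percentage of all genes called under the same setting in brackets. In the wildtype at 240 min heat changed 1 gene with an offset of 10 (23.5%) and with median centring (13.7%). The same held with the scanner software's ratio (19.6%) and without the filter on dim probes (13.9%). Heat changed 2 in the wildtype at 30 min with the scanner software's ratio (20.4%). With slide as a block it changed 0 and 0 at 30 and 240 min (3.35% and 4.57%). Of the 7 genes other than Stub1, 0 differed by genotype in controls at 30 min with the offset of 10 (34.1%) or without the filter (15.5%). The same held with the mean of a gene's probes (33.4%), with the slide block (12.2%) and in the value table (8.65%). In heated cells 0 and 0 differed at 30 and 240 min with median centring, with the scanner software's ratio, with the mean of probes, with the slide block and in the value table, and 1 at 30 min without the filter. The value table gave 1 in controls at 240 min (35.2%), which by its opposite labels are arrays labelled 30 min. Time changed 1 gene in CHIP null controls with median centring (33.5%).

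Same-numbered arrays correlated at -0.23 to 0.55 in their deviations from group means. In no comparison were all 3 pairs above 0.1, though between genotypes in heated cells at 240 min they were 0.55, 0.08 and 0.41. With 3 arrays a group this cannot settle whether the numbers pair the arrays. A replicate block gave 4 genes changed by heat in the CHIP null at 240 min, where it called 39.5% of all genes. The replicate block across genotypes, chosen after seeing the data, gave 1 in heated cells at 30 min, with 27.7% of all genes called. Neither moved another number of called genes among the 8 by more than 1.5 times. Without 1 array each, heat changed 1 to 2, 1 to 3, 1 to 3 and 2 to 4 genes (wildtype then null, 30 then 240 min). It gave 0 to 2 and 0 to 0 of the other genes by genotype in controls, 0 to 2 and 0 to 1 in heated cells, 0 to 0 interactions, and 3 to 4 and 2 to 3 between times in the wildtype and CHIP null.

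Reversals came from 2 settings. With median centring, where all genes had medians of -0.09, -0.03, -0.18 and -0.18 for heat, the CHIP null at 30 min gave -0.16 for Stub1, -0.053 for Hspbp1 and -0.42 for St13, and at 240 min -0.0074 for Hspbp1. Between times, Stub1 and Bag1 gave 0.33 and 0.018 in the wildtype and Bag3 0.020 in the CHIP null. The value table, whose time labels are the opposite ones, gave -0.023 for Bag1 by heat in the wildtype at 240 min and 0.18 and -0.16 for Bag3 between genotypes in heated cells at 30 and 240 min. Between times it gave 0.24 for Bag1, 0.42 for Bag2, 0.47 for Bag3, -1.10 for Bag4 and -0.48 for St13 in the wildtype, and 0.093 for Stub1, 0.33 for Bag2, 0.23 for Bag3 and -0.45 for St13 in the CHIP null. Beyond those labels, the cause was not tested. Times lay on separate slides, so slide as a block could not be fitted to them. Dim signal limits Bag4 and Hspbp1 most.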
